A study of Homo sapiens with 6 samples.

Results

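The receptor tyrosine kinases EGFR, ERBB2 and ERBB3 and the ligands AREG, EREG, TGFA, HBEGF, BTC and EPGN were followed across RNA-seq libraries of HT-29 cells, an established human colorectal cancer line, after KD of 1 of 2 long noncoding RNAs. These 9 genes of the EGF receptor family were chosen by name, through their Entrez identifiers, from the 27434 rows of each deposited table. All 9 had a row, and 8 of them passed the count filter and were among the 13034 genes tested, EPGN being the exception. Cells were transfected for 48 h with an siRNA pool against HOXA-AS3 (siHOXA-AS3), an siRNA pool against HOXB-AS3 (siHOXB-AS3) or a non-targeting control pool (siNT), with 2 libraries per condition. The labels give 10 nM siRNA and column extraction, whereas the study's methods give a higher dose and TRIREAGENT. All 3 groups therefore shared the line, the transfection reagent and the time, and no untransfected cells were analysed here. Nothing states that the libraries of a condition came from separate cultures, so p-values measure only the spread between these libraries, which may be technical.

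EGF family ligands are made as membrane-anchored precursors that proteases of the ADAM family cut free, after which they bind receptors on the same or on neighbouring cells. Ligand binding lets receptors pair, and the paired kinases signal through the RAS-ERK and PI3K-AKT routes. EGFR binds AREG, EREG, TGFA, HBEGF, BTC and EPGN. ERBB2 has no known ligand and serves as a partner, and ERBB3 binds neuregulins, has a weak kinase and recruits PI3K when paired. In the colon epithelium this system is known for driving growth and repair, and AREG and EREG are abundant in many colorectal cancers.

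Before the members' values, 3 features of the libraries are given, since each touches results below. Expected counts, which are RSEM's estimated numbers of fragments per gene, summed to between 15998518 and 26263938 per library. The targeted RNAs were checked first. HOXB-AS3 had 303 and 213 expected counts in siNT, 263 and 208 in siHOXA-AS3 and 67 and 76 in siHOXB-AS3, so it was low only in its own KD (log2 fold change against siNT -1.96, edgeR adjusted p = 0.0678, and -1.88 against siHOXA-AS3, adjusted p = 0.0291). HOXA-AS3 had 38 and 18 counts in siNT, 12 and 12 in siHOXA-AS3 and 30 and 22 in siHOXB-AS3, and its lower level in its own KD did not pass the test (log2 fold change -1.09, adjusted p = 0.711). The siHOXA-AS3 libraries stood apart from each other. Across genes, the SD of the log2 difference between replicates was 0.726 in siHOXA-AS3, 0.425 in siNT and 0.371 in siHOXB-AS3. The Pearson correlation of this difference (replicate 1 minus 2) with GC content of the genes was 0.748 in siHOXA-AS3. It was -0.394 in siNT, of opposite sign, and 0.149 in siHOXB-AS3. These correlations are a description, since genes are not independent of each other. Of 10 colon epithelium markers, 8 were at 1 TPM or more in every library, while CDX2 and GPA33 were below that level. Markers of stroma, with COL1A2, PDGFRB and DCN at 0, and of endothelium summed to at most 0.1 TPM in any library, and the immune list summed to 13.8 to 22.3 TPM, of which CD68 alone had enough counts to test.

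The regulatory sequences of 3 neighbouring ligands are shown because AREG, EREG and BTC lie next to each other on chromosome 4 and did not have the same pattern across the KDs. Each is the stretch of 250 bases just before the RefSeq start of the gene, 5′ to 3′ on the strand of the gene, in GRCh38.p14. They lie at chr4:74444886-74445135 on the plus strand for AREG, chr4:74364895-74365144 on the plus strand for EREG and chr4:74794524-74794773 on the minus strand for BTC. Capitals mark matches to 5 motifs searched on both strands, and no pair of the matches shown overlaps. The motifs were the cAMP response element (TGACGTCA), the AP-1 site (TGANTCA), the TEAD site (GGAATG), the TATA box (TATAAA) and the GC box (GGGCGG).
AREG: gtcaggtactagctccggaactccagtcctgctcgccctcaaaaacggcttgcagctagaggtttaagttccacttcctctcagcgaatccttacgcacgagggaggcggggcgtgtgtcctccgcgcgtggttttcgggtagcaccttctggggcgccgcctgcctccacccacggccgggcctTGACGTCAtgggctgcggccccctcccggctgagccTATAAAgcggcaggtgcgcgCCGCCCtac
EREG: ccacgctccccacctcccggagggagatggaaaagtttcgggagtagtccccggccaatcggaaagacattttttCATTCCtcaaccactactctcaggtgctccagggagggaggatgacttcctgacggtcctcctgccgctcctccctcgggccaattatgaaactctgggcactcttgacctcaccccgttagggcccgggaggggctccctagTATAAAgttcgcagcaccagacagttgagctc
BTC: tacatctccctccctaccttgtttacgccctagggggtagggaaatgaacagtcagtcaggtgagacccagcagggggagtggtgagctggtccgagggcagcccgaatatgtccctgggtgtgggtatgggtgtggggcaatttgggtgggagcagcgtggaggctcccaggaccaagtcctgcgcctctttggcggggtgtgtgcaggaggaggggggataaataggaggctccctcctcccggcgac
The AREG promoter held a cAMP response element from -65 to -58, a TATA box from -29 to -24 and a GC box from -9 to -4, counted from the start of the gene. A full cAMP response element was present in 482 of 27305 promoters of this length (1.77%), a TATA box in 11.1% and a GC box in 42.3%. The EREG promoter held a TEAD site from -175 to -170, a motif found in 11.9% of promoters, and a TATA box from -32 to -27. The BTC promoter held none of these letters, which says only that they are not in this window. Among the other members with a promoter in the table, EPGN had a TATA box, ERBB2 an AP-1 site (6.6% of promoters), and EGFR, TGFA and HBEGF had GC boxes only, 2, 3 and 5 of them. A match is a description of letters and not a binding site.

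The guide strands of the HOXB-AS3 pool are shown because siRNA seeds are known, as background, to act on transcripts other than the intended target. They are the first 19 bases of each strand from the study's table of designed siRNAs, 5′ to 3′, and capitals mark the seed, bases 2 to 8.
HOXB-AS3 guide 1: aCUUUGUCucccuuugucg
HOXB-AS3 guide 2: uUUCUUUCaugcccgacuc
HOXB-AS3 guide 3: uUUCCCUUcaccccuugac
Letters complementary to these seeds occur in 28.9%, 45.2% and 35% of 11052 transcripts, respectively, taken 1 per tested gene from GENCODE v29. The ERBB3 transcript (5919 bases) held 3 such places, all for guide 3, and the AREG transcript (1240 bases) held 3, all for guide 2. Each is given with 11 bases before and 1 base after the match, which is in capitals.
ERBB3 site 1, coding sequence: tacaaattgccAAGGGAAt
ERBB3 site 2, 3′ UTR: cattttacacaAAGGGAAg
ERBB3 site 3, 3′ UTR: gatggggaactAAGGGAAa
AREG site 1, coding sequence: taaacccaaaaGAAAGAAa
AREG site 2, coding sequence: tagaagaaacaGAAAGAAg
AREG site 3, coding sequence: agctgaggaacGAAAGAAa
At least 3 places were found in 25.1% of transcripts, and EGFR and EPGN also had 3. BTC had 4, a number reached by 15.4% of transcripts, and ERBB2, EREG, TGFA and HBEGF had 1 each. Per kilobase of transcript EPGN, AREG and BTC ranked highest among the members. AREG had 2.42 places per kb, a density reached by 0.344% of transcripts, EPGN had 2.51 (0.263%) and BTC had 1.42 (3.03%). ERBB3 had 0.507 (33.1%), and HBEGF, with a shorter transcript than BTC, had 0.419 (41.6%). None of the 9 members held a place for the seeds of the HOXA-AS3 pool. Those letters are rarer, in 4.64%, 5.63%, 7.86% and 4.42% of transcripts, and the median transcript held 0 places for that pool. The longest stretch complementary to any part of a HOXB-AS3 guide was 11 bases, in ERBB3, and it is not an extension of any of the 3 seed matches shown. ERBB3 was low and AREG high in siHOXB-AS3, both with 3 places, and the part of seed matches in either level was not tested.

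Levels were first ordered in TPM, which corrects for length and therefore allows comparison between genes. Averaged over the 6 libraries, the order was AREG (666 TPM), EREG (238), EGFR (67.3), ERBB3 (38), TGFA (22.6), ERBB2 (17.1), HBEGF (7.29), BTC (6.06) and EPGN (0.113). Ligand transcripts headed the list, with AREG at rank 206 and EREG at rank 493 among the 27434 rows and EGFR at rank 1622. The steps from AREG to EREG, from EREG to EGFR and from EGFR to ERBB3 were found in 6 of 6 libraries without overlap. ERBB3 lay above TGFA in the 4 libraries of siNT and siHOXA-AS3 and below it in both siHOXB-AS3 libraries. TGFA and ERBB2 overlapped in siNT, and TGFA was above ERBB2 without overlap in both KDs. HBEGF and BTC overlapped in siNT and in siHOXA-AS3, and HBEGF was above BTC without overlap in siHOXB-AS3. The ranges of ERBB2 and HBEGF overlapped in siHOXA-AS3, with ERBB2 above HBEGF in each of the 6 libraries. In the groups where they overlapped, these neighbours did not differ beyond their spread.

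**Figure D1:**
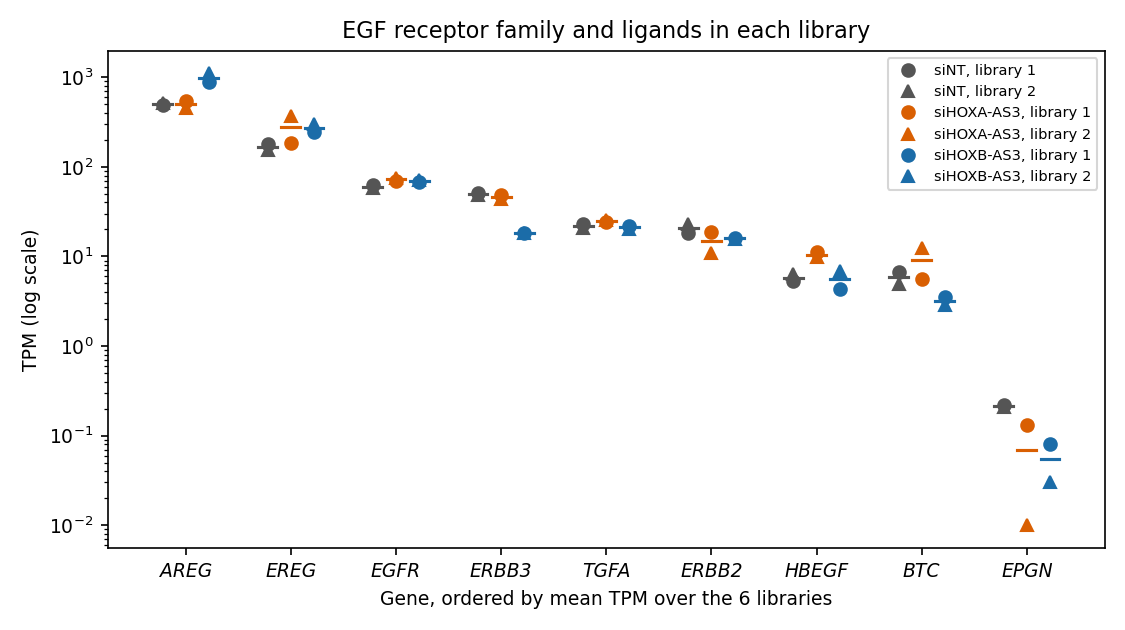
TPM (log scale) of the 9 genes in each of the 6 libraries, with 1 point per library and a short bar at the mean of the 2 libraries of a condition. AREG is highest in every library, the siHOXB-AS3 points of ERBB3 (18.1 TPM each) lie below all others of that gene, and EPGN is below 0.3 TPM throughout.

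Among the receptors, EGFR, the family's founding member, was at 62.1 and 57.5 TPM in siNT, 69.7 and 74.8 TPM in siHOXA-AS3 and 68 and 71.6 TPM in siHOXB-AS3. Every KD library was above both siNT libraries. The folds that edgeR estimated from counts were 1.21 in siHOXA-AS3 and 1.25 in siHOXB-AS3. Mean TPM was 59.8 in siNT, 72.3 in siHOXA-AS3 and 69.8 in siHOXB-AS3, so the order of the KDs depended on the scale. Neither difference passed the test (edgeR quasi-likelihood test with Benjamini-Hochberg adjustment over 13034 genes, used for every adjusted p below unless another tool is named; adjusted p = 0.872 for siHOXA-AS3 and 0.43 for siHOXB-AS3).

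ERBB2, the partner receptor, was at 18.4 and 22.8 TPM in siNT, 18.7 and 11 TPM in siHOXA-AS3 and 16.3 and 15.5 TPM in siHOXB-AS3. Of the siHOXA-AS3 libraries, replicate 1 lay within the siNT range and replicate 2 was the lowest of all 6, and the siHOXB-AS3 libraries lay below both siNT libraries by a small margin. Log2 fold changes were -0.42 with a standard error of 0.293 (adjusted p = 0.955) for siHOXA-AS3 and -0.29 with a standard error of 0.293 (adjusted p = 0.766) for siHOXB-AS3. ERBB2 transcripts have a GC content of 59.3%, the highest of the members tested, and the siHOXA-AS3 libraries differed by 0.84 for it on the log2 scale. The siHOXA-AS3 log2 fold change was -0.90 without siHOXA-AS3 replicate 1 and -0.06 without siHOXA-AS3 replicate 2.

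ERBB3, the neuregulin receptor, was at 51.2 and 48.4 TPM in siNT, 48 and 44.2 TPM in siHOXA-AS3 and 18.1 and 18.1 TPM in siHOXB-AS3. Both siHOXB-AS3 libraries were far below the other 4, which lay close together. ERBB3 fell in siHOXB-AS3 against siHOXA-AS3 (2.43-fold, log2 fold change -1.28, SE 0.155, adjusted p = 0.0275). Against siNT it was 2.64-fold lower (log2 fold change -1.40, SE 0.156, unadjusted p = 3.89e-05), and the adjusted p of 0.0532 missed the threshold of 0.05. In siHOXA-AS3 the log2 fold change against siNT was -0.12 (SE 0.152, adjusted p = 0.997). The size hardly depended on the setting, from -1.42 to -1.38 against siNT when any 1 library was left out, but the call did. DESeq2 called it against siNT (adjusted p = 9.97e-08), as did edgeR on the siNT and siHOXB-AS3 libraries alone (adjusted p = 2.61e-09). The call against siHOXA-AS3 was lost without siNT replicate 1 (adjusted p = 0.114), without siNT replicate 2 (0.11), without siHOXB-AS3 replicate 1 (0.385) or without siHOXB-AS3 replicate 2 (0.483), with the replicate number as a block (0.0844) and with only the 2 groups compared (0.117).

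In bulk RNA a lower level may mean fewer cells with the transcript or less of it per cell, and these cannot be told apart. EPCAM, an epithelial adhesion protein, and CDH17, an intestinal cadherin, moved in the same comparison as ERBB3. EPCAM was at 423 and 392 TPM in siNT, 380 and 445 TPM in siHOXA-AS3 and 219 and 215 TPM in siHOXB-AS3 (siHOXB-AS3 against siHOXA-AS3, log2 fold change -0.82, adjusted p = 0.0471). CDH17 was at 10.4 and 9, 15.9 and 22.2, and 7.2 and 6.96 TPM in the same order (log2 fold change -1.32, adjusted p = 0.041). The other 8 of the 10 colon epithelium markers did not pass in that comparison, where 1.57% of all genes were called. The median log2 fold change of the 10 was -0.39 there, with 7 below 0 and 3 above. In siHOXB-AS3 against siNT it was -0.41, with 8 below 0 and 2 above, beside -0.01 for all genes in both comparisons. The summed level of the list was 4998 to 5164 TPM in siNT, 4194 to 5736 TPM in siHOXA-AS3 and 4660 to 4954 TPM in siHOXB-AS3. KRT18 alone was at 3064 and 3208 TPM in siNT and 3091 and 3406 TPM in siHOXB-AS3, so the sum says little about the other markers. The part of the epithelial markers in the ERBB3 result was not tested.

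Among the ligands, AREG, encoding amphiregulin, was at 491 and 517 TPM in siNT, 543 and 458 TPM in siHOXA-AS3 and 880 and 1105 TPM in siHOXB-AS3. Both siHOXB-AS3 libraries were above the other 4, and siHOXA-AS3 overlapped siNT. AREG rose in siHOXB-AS3 against siHOXA-AS3 (2.13-fold, log2 fold change 1.09, SE 0.187, adjusted p = 0.0484). Against siNT it was 2.1-fold higher (log2 fold change 1.07, SE 0.187, unadjusted p = 0.000781), which did not pass after adjustment (adjusted p = 0.101). The log2 fold change of siHOXA-AS3 against siNT was -0.02 (adjusted p = 0.999). DESeq2 called AREG in siHOXB-AS3 against siNT (adjusted p = 0.000963) and edgeR did so on the libraries of those 2 groups alone (adjusted p = 1.92e-07). The call against siHOXA-AS3 was lost without siNT replicate 1 (adjusted p = 0.155), without siNT replicate 2 (0.14), without siHOXB-AS3 replicate 1 (0.36) or without siHOXB-AS3 replicate 2 (0.55), with the block (0.117), with only the 2 groups compared (0.157), with limma-trend (0.0602) and after removal of a trend on GC content (0.0647). The log2 fold change itself was 0.92 to 1.25 in these fits. A second AREG row, a copy of the gene in the annotation used, held 0 counts in every library, so all counts assigned to AREG were in the row used here. How RSEM assigned reads that match both copies was not tested.

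EREG, encoding epiregulin, was at 178 and 154 TPM in siNT, 183 and 367 TPM in siHOXA-AS3 and 246 and 299 TPM in siHOXB-AS3. Every KD library was above both siNT libraries, and siHOXA-AS3 replicate 2 was the highest of all. Fold changes were 1.63-fold in siHOXA-AS3 (adjusted p = 0.78) and 1.75-fold in siHOXB-AS3 (adjusted p = 0.323), neither of which passed. The siHOXA-AS3 log2 fold change was 0.71, and it was 1.09 without siHOXA-AS3 replicate 1 and 0.19 without siHOXA-AS3 replicate 2. With siNT and siHOXB-AS3 alone the siHOXB-AS3 difference passed (adjusted p = 4.73e-06), while DESeq2 gave an adjusted p of 0.131.

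BTC, encoding betacellulin, was at 6.76 and 4.97 TPM in siNT, 5.65 and 12.6 TPM in siHOXA-AS3 and 3.51 and 2.88 TPM in siHOXB-AS3. The siHOXB-AS3 libraries were the lowest of the 6, and siHOXA-AS3 replicate 2 was the highest. In siHOXB-AS3 BTC was 1.76-fold below siNT (adjusted p = 0.458) and 2.61-fold below siHOXA-AS3 (adjusted p = 0.121). DESeq2 called the second of these differences (adjusted p = 0.00465). Without siHOXA-AS3 replicate 1 the siHOXA-AS3 log2 fold change against siNT was 0.99, and without siHOXA-AS3 replicate 2 it was -0.03. EREG and BTC transcripts, with GC contents of 39.2% and 39.9%, are the lowest in GC of the members tested, and the log2 difference between siHOXA-AS3 replicates 1 and 2 was -0.91 and -1.02 for them. After removal of the GC trend, EREG passed in siHOXA-AS3 against siNT (log2 fold change 0.56, adjusted p = 0.028) and in siHOXB-AS3 against siNT (0.72, adjusted p = 0.00427). BTC then passed in siHOXB-AS3 against siNT (-0.89, adjusted p = 0.0159) and against siHOXA-AS3 (-1.32, adjusted p = 0.00154). This setting was chosen after seeing the data and raised the calls over all 13034 genes. They went from 0 to 509 in siHOXA-AS3 against siNT, from 8 to 1699 in siHOXB-AS3 against siNT and from 204 to 3268 between the KDs.

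HBEGF, a heparin-binding ligand, was at 5.33 and 6.3 TPM in siNT, 11.1 and 9.83 TPM in siHOXA-AS3 and 4.32 and 6.84 TPM in siHOXB-AS3. It was the member with the smallest p in siHOXA-AS3, where both libraries were above the other 4. The difference was 1.8-fold (log2 fold change 0.85, SE 0.286, unadjusted p = 0.0216) and did not pass (adjusted p = 0.674). The log2 fold change was 0.71 without siHOXA-AS3 replicate 1 and 0.99 without siHOXA-AS3 replicate 2, each from a lone siHOXA-AS3 library. In siHOXB-AS3 the log2 fold change against siNT was 0.03 (adjusted p = 0.986), and against siHOXA-AS3 it was -0.82 (adjusted p = 0.2). After removal of the GC trend, the setting chosen after seeing the data, HBEGF also passed between the KDs (-0.84, adjusted p = 0.0306).

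TGFA, encoding transforming growth factor alpha, is a ligand that many epithelial cells make for themselves. It was at 23 and 20.8 TPM in siNT, 24.4 and 25.3 TPM in siHOXA-AS3 and 21.8 and 20.3 TPM in siHOXB-AS3, with log2 fold changes against siNT of 0.17 (adjusted p = 0.987) and 0.03 (adjusted p = 0.965). EPGN, encoding epigen, had 9.05 and 5.49 expected counts in siNT, 5.07 and 0.38 in siHOXA-AS3 and 3.15 and 1.01 in siHOXB-AS3, too few to test, and no fold is given for it. Of the family genes outside the 9, ERBB4, NRG1, NRG2 and NRG3 had 0 counts in every library, EGF had 18 to 31 and NRG4 had 5 to 24.

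Counted over the members, the KD of HOXA-AS3 had 0 of 8 called against siNT, beside 0% of all genes tested. At an unadjusted p below 0.05 it had 2 members, EREG and HBEGF, beside 6.16%. In TMM-normalized CPM, the scale used for all such counts of groups that do not overlap, both libraries lay above both siNT libraries for 4 members (12.5% of all genes) and below both for 1 (16.1%), and DESeq2 called 0 members (0.391%). The median log2 fold change of the 8 members was 0.22, beside 0.01 for all genes.

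The KD of HOXB-AS3 also had 0 of 8 called against siNT, beside 0.0614% of all genes, and 3 members (ERBB3, AREG and EREG) at an unadjusted p below 0.05, beside 12.2%. Both libraries lay above both siNT libraries for EGFR, AREG and EREG (30.9% of all genes) and below both for ERBB2, ERBB3 and BTC (30.9%). DESeq2 called ERBB3 and AREG (2.66% of all genes). In the fit of siNT and siHOXB-AS3 alone EGFR, ERBB3, AREG, EREG and BTC were called, beside 23.3% of all genes. The median of the members was 0.03, beside -0.01 for all genes, with values from -1.40 to 1.07.

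Between the KDs, 2 of 8 members were called, ERBB3 lower and AREG higher in siHOXB-AS3, beside 1.57% of all genes. At an unadjusted p below 0.05 there were 4, which added HBEGF and BTC (18.4% of all genes). In TMM-normalized CPM both siHOXB-AS3 libraries lay above both siHOXA-AS3 libraries for 2 members, EGFR and AREG (22.8%), and below both for 4 (22.5%). For EGFR this depended on the scale, with 274 and 284 CPM in siHOXB-AS3 beside 269 and 272 CPM in siHOXA-AS3, while the TPM values of these groups overlapped with a lower mean in siHOXB-AS3. DESeq2 called 3 members, which added BTC (6.08%). The comparisons with siNT share the siNT libraries, so their values are given side by side and not correlated.

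**Figure D2:**
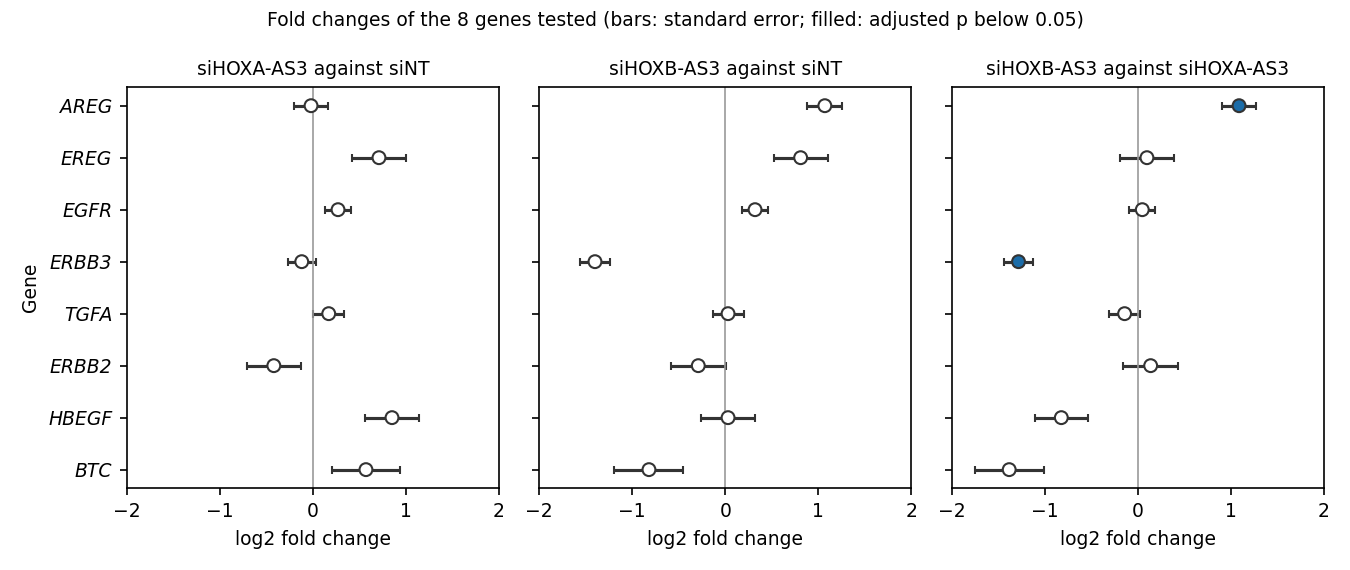
Log2 fold changes of the 8 genes tested in the 3 comparisons, as points with bars of 1 standard error from edgeR, filled where the adjusted p was below 0.05. ERBB3 (-1.28) and AREG (1.09) are the filled points and both are in siHOXB-AS3 against siHOXA-AS3.

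Summed over the 6 ligands, transcripts came to 705 and 704 TPM in siNT, 767 and 872 TPM in siHOXA-AS3 and 1156 and 1434 TPM in siHOXB-AS3. Both siHOXB-AS3 sums were above the other 4, at 1.84 times the siNT mean. Summed over the 3 receptors, they came to 132 and 129 TPM, 136 and 130 TPM, and 102 and 105 TPM in the same order, and the siHOXB-AS3 mean was 0.797 times that of siNT. The smallest p of a two-sided exact permutation test of 2 against 2 libraries is 0.33, which both siHOXB-AS3 comparisons with siNT reached, so the sums are a description.

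The makeup of the sums also differed. AREG gave 69.7% and 73.5% of ligand transcripts in siNT, 70.8% and 52.5% in siHOXA-AS3 and 76.2% and 77% in siHOXB-AS3, and EREG gave 42% in siHOXA-AS3 replicate 2 beside 20.9% to 25.3% in the other 5 libraries. ERBB3 gave 38.9% and 37.6% of receptor transcripts in siNT, 35.2% and 34% in siHOXA-AS3 and 17.7% and 17.2% in siHOXB-AS3. EGFR gave 47.1% and 44.7%, 51.1% and 57.6%, and 66.4% and 68% in the same order, and it was the leading receptor in all 6 libraries.

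**Figure D3:**
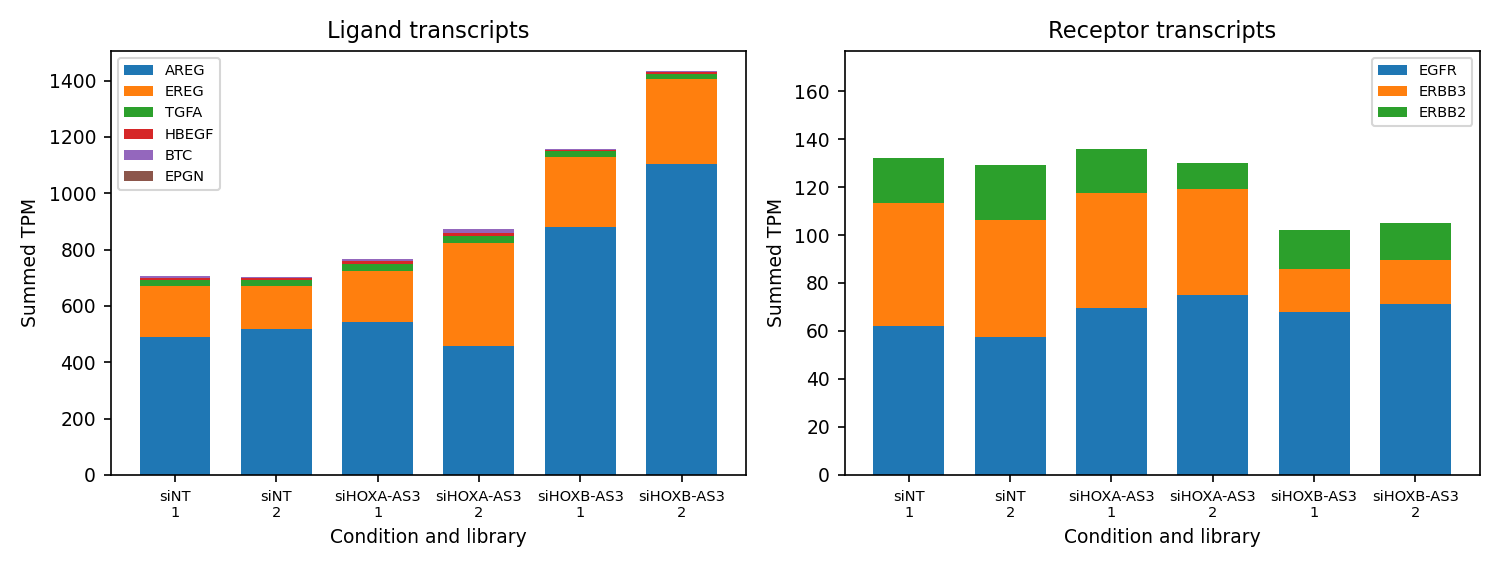
Summed TPM of the 6 ligands (left) and of the 3 receptors (right) in each library, stacked by gene. The siHOXB-AS3 bars are the tallest on the left (1156 and 1434 TPM) and the lowest on the right (102 and 105 TPM), where the ERBB3 segment is smaller than in the other libraries.

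Position was examined next, because EPGN, EREG, AREG and BTC follow each other on chromosome 4 with no other protein-coding gene between them in the RefSeq annotation. From 500 kb before EPGN to 500 kb after BTC there are 34 annotated genes, of which 16 had a row and 9 were tested, 6 of them not members. The genes before EPGN include chemokines that attract neutrophils. CXCL1, CXCL2 and CXCL3 had higher levels in siHOXB-AS3 than in the other libraries, though none passed against siNT, and CXCL5 and CXCL6 were at most at 0.34 TPM in any library and were not tested. CXCL1 was at 2.23 and 1.16 TPM in siNT, 3.15 and 2.29 TPM in siHOXA-AS3 and 6.19 and 11.1 TPM in siHOXB-AS3 (log2 fold change against siNT 2.40, adjusted p = 0.112). CXCL3 was at 3.93 and 3.83, 3.49 and 3.62, and 8.85 and 14.9 TPM in that order. Of these neighbours it alone was called, in siHOXB-AS3 against siHOXA-AS3 (log2 fold change 1.84, adjusted p = 0.0492), and against siNT its log2 fold change was 1.70 (adjusted p = 0.113). CXCL2 was at 2.59 and 2.69, 2.22 and 2.95, and 4.83 and 9.46 TPM (log2 fold change against siNT 1.53, adjusted p = 0.181). CXCL1, CXCL2 and CXCL3 are closely related paralogs whose reads may be split between them. PF4, MTHFD2L and PARM1 were at most at 1.82 TPM and did not pass in any comparison. BTC, at the far end of the ligand group, was below siNT in siHOXB-AS3, where AREG and EREG were above it. These measured differences did not share 1 direction, and none passed (adjusted p = 0.458, 0.101 and 0.323). Of all genes, 30.9% had both siHOXB-AS3 libraries above both siNT libraries and 30.9% had both below.

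By likeness of log2 CPM over the 6 libraries, the 3 tested genes closest to AREG, the most abundant ligand, were NMUR2 (Pearson r = 0.9996), CCN1 (0.9961) and PIP5K1A (0.9958). CCN1, a secreted matrix protein, was at 10.6 and 13.1 TPM in siNT, 13.8 and 9.56 TPM in siHOXA-AS3 and 38.6 and 48.4 TPM in siHOXB-AS3. Closest to EGFR, the most abundant receptor, were NCEH1 (0.9941), PACC1 (0.9781) and RORA (0.9757), the last at no more than 0.13 TPM. Among the members, r with AREG was 0.393 for EREG, -0.894 for BTC and -0.944 for ERBB3. These 6 points share conditions and depth, and the correlations are a description.

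Of the proteins that release ligands, 10 of 12 listed genes were tested and 1 was called, in 1 comparison, where 1.57% of all genes were called. At an unadjusted p below 0.05 there were 2, 2 and 1 in siHOXA-AS3 against siNT, siHOXB-AS3 against siNT and siHOXB-AS3 against siHOXA-AS3. The shares of all genes were 6.16%, 12.2% and 18.4%. ADAM19, a protease of this group, fell in siHOXB-AS3 against siHOXA-AS3 (log2 fold change -1.52, adjusted p = 0.0391), with 5.91 and 6.54 TPM in siNT, 13.4 and 10.1 TPM in siHOXA-AS3 and 3.91 and 3.8 TPM in siHOXB-AS3. Here both KDs lay outside the siNT range, on opposite sides. Besides ADAM19, the smallest p against siNT belonged to RHBDL2 (-0.77) and ADAM9 (0.34) in siHOXA-AS3 and to NKD2 (1.27) and RHBDL2 (-0.29) in siHOXB-AS3. Their adjusted p ran from 0.273 to 0.934, and in siHOXB-AS3 NKD2 had a smaller p than ADAM19. The main AREG sheddase ADAM17 was at 18.6 and 16.4, 17 and 24.3, and 15.2 and 15.5 TPM, and its log2 fold changes were 0.23 (adjusted p = 0.978) and -0.09 (adjusted p = 0.906). ADAM17 was named after its values were seen. The median of the list was 0.20 in siHOXA-AS3 and -0.01 in siHOXB-AS3, beside 0.01 and -0.01 for all genes.

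Of 16 genes that restrain the receptors or govern their turnover, 0 were called by edgeR in any comparison, while 1, 2 and 4 had an unadjusted p below 0.05 in siHOXA-AS3 against siNT, siHOXB-AS3 against siNT and siHOXB-AS3 against siHOXA-AS3, beside 6.16%, 12.2% and 18.4% of all genes. ERRFI1, a feedback inhibitor of EGFR, was at 281 and 300 TPM in siNT, 412 and 408 TPM in siHOXA-AS3 and 232 and 279 TPM in siHOXB-AS3 (log2 fold change in siHOXA-AS3 0.49, adjusted p = 0.641). CBLB, a ubiquitin ligase for activated receptors, was at 7.7 and 6.56, 7.02 and 10.1, and 4.04 and 4.03 TPM (siHOXB-AS3 against siNT -0.71, adjusted p = 0.248). PTPN1, a tyrosine phosphatase, was at 37.6 and 37.7, 34.3 and 32.5, and 48.1 and 48.6 TPM (siHOXB-AS3 against siNT 0.45, adjusted p = 0.309). The siHOXB-AS3 libraries were thus the lowest for CBLB and the highest for PTPN1. EPS15 (0.43) and LRIG3 (-0.37) in siHOXA-AS3 and PTPN2 (0.33) in siHOXB-AS3 completed the smallest p against siNT, with adjusted p of 0.934, 0.948 and 0.578. The medians were 0.11 and 0.14.

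Of 31 adaptors and effectors, 1 was called, in siHOXB-AS3 against siHOXA-AS3, where 1.57% of all genes were called. At an unadjusted p below 0.05 there were 1, 1 and 5 in the order above, beside 6.16%, 12.2% and 18.4% of all genes. GAB1, a docking protein that carries receptor signals to PI3K and SHP2, rose in siHOXB-AS3 against siHOXA-AS3 (log2 fold change 1.32, adjusted p = 0.0432), with 15.9 and 14.6 TPM in siNT, 7.25 and 10.8 TPM in siHOXA-AS3 and 19.7 and 22.3 TPM in siHOXB-AS3. As with ADAM19, the KDs lay on opposite sides of siNT, at -0.76 (adjusted p = 0.61) and 0.56 (adjusted p = 0.339). GRB7 (-0.42, adjusted p = 0.948) in siHOXA-AS3 and VAV2 (-0.44, adjusted p = 0.492) in siHOXB-AS3 were also among the smallest p against siNT. The medians were 0.06 and -0.09.

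Of 18 genes that report ERK activity, 0 were called by edgeR in any comparison, and 4, 4 and 8 had an unadjusted p below 0.05 in the order above, beside 6.16%, 12.2% and 18.4% of all genes. In siHOXB-AS3 against siNT the smallest p belonged to MYC (1.09, adjusted p = 0.0774), DUSP5 (1.01, adjusted p = 0.171) and EPHA2 (1.03, adjusted p = 0.219), and in siHOXA-AS3 to CCND1 (-0.83, adjusted p = 0.51), PHLDA1 (0.69, adjusted p = 0.517) and DUSP6 (0.53, adjusted p = 0.75), with list medians of 0.03 and 0.31.

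**Figure D4:**
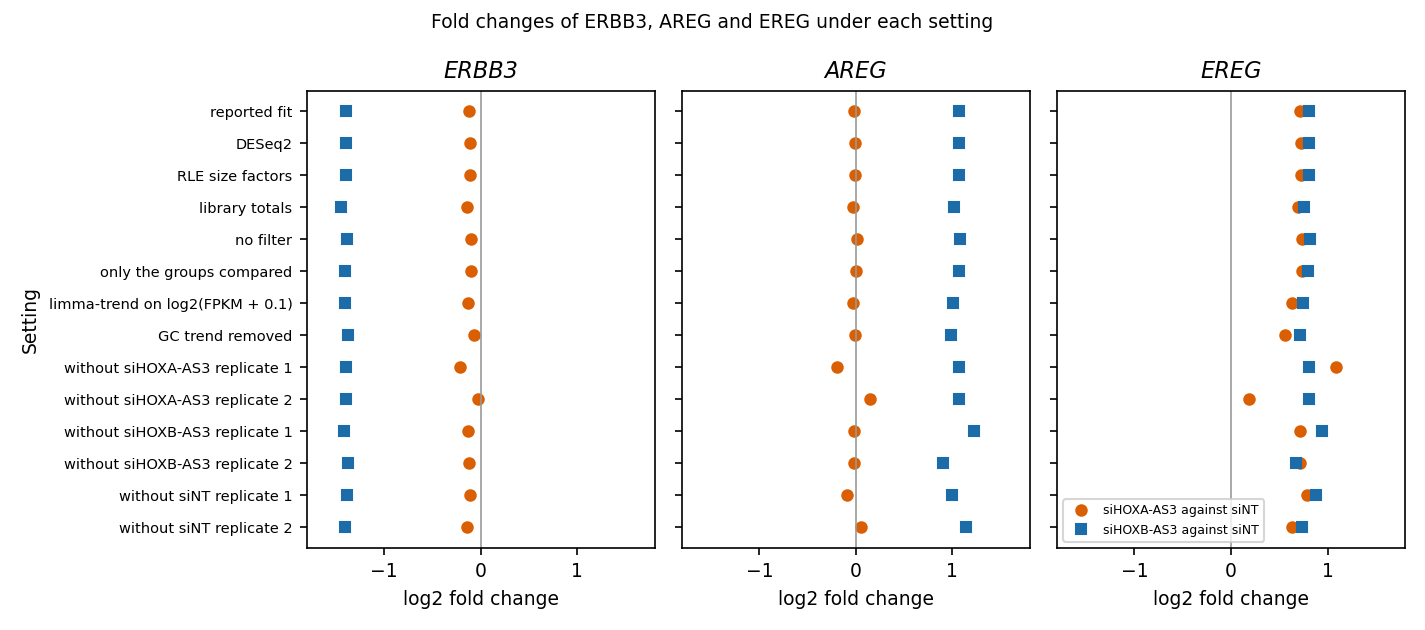
Log2 fold changes against siNT of ERBB3, AREG and EREG in each KD (circles siHOXA-AS3, squares siHOXB-AS3) under the reported fit, 7 other settings and with each library left out. The siHOXB-AS3 values of ERBB3 stay between -1.45 and -1.38 and those of AREG between 0.90 and 1.22, while EREG in siHOXA-AS3 runs from 0.19 to 1.09 with the siHOXA-AS3 library left out.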

How the data were processed

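RNA-seq libraries of HT-29 cells transfected with siNT, siHOXA-AS3 or siHOXB-AS3 (n = 2 each) were analysed. The study's methods describe the SENSE mRNA-Seq kit and quantification with RSEM on RefSeq genes, the submitters' processing notes name hg19, while for the aligner, the version of RSEM and strandedness the sources used here give nothing. The authors deposited expected counts, which are not normalized, TPM, scaled to 1 sum per library, and FPKM, scaled by length and library size. Of 27434 rows, 627 join several genes and held 6.02% to 6.62% of counts, and rows without a symbol held at most 0.0474%. Total counts of 15998518 to 26263938 limit precision for EPGN most.

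Expected counts were rounded and tested in R 4.3.3 with edgeR 4.0.16 (filterByExpr with a minimum count of 10, TMM, robust quasi-likelihood test, all 6 libraries in 1 model, Benjamini-Hochberg adjustment, threshold 0.05). The step was checked on simulated data with larger changes than those of the members and the same spread in every group. That check cannot show how the test performs for changes of the members' size or with unequal spread. Groups came from the labels. Same-numbered replicates were not paired in the reported fit. Their deviations over all genes had correlations of -0.347, -0.139 and 0.15. These values also hold the differences between replicates along GC content, so they cannot show whether same-numbered libraries were handled together. Alternatives were DESeq2 1.42.0, RLE size factors, library totals, no filter, only the groups compared, a replicate block, limma-trend (limma 3.58.1) on log2(FPKM + 0.1), and each library left out. Removal of a loess trend on GC content and a crossed block were chosen after seeing the data, with GC values for 96.7% of genes tested. With 1 library omitted, its lone partner was taken to vary as the other groups do.

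The genes named were all members, the other family genes, genes of each pathway list called in any comparison or among the 3 smallest p of each KD against siNT, tested neighbours within 500 kb and the 3 genes most like the top ligand and the top receptor. Members, lists, motifs and the search for seed matches were chosen with earlier results of these data known. Promoters are RefSeq sequences (GRCh38.p14), found for 8 of 9 members, and were not placed on the build of the files. Transcript sequences and GC contents are from GENCODE v29. ERBB3 is not in the promoter table. The qRT-PCR data were not analysed here, and 2 genes that the naming rule picked from the adaptor list are not reported here.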

Additional observations from a re-analysis of the deposited data

Results flagged for a closer look

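For 2 members the effects of the KDs differed in the reported fit by a direct test of siHOXB-AS3 against siHOXA-AS3. ERBB3 was at 18.1 and 18.1 TPM in siHOXB-AS3 beside 48 and 44.2 TPM in siHOXA-AS3 (log2 difference -1.28, edgeR adjusted p = 0.0275), lower in 2 of 2 libraries. AREG was at 880 and 1105 TPM beside 543 and 458 TPM (log2 difference 1.09, edgeR adjusted p = 0.0484), higher in 2 of 2 libraries. Of all genes, 22.5% had both siHOXB-AS3 libraries below both siHOXA-AS3 libraries in TMM-normalized CPM, and 22.8% had both above. Both calls were lost in edgeR with only the groups compared (adjusted p = 0.117 for ERBB3 and 0.157 for AREG). The same held with the replicate number as a block (0.0844 and 0.117). With 2 libraries per condition, no group was large enough to look for single libraries far from the rest.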

How the results depend on the processing

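Of 360 fold changes of members recomputed under alternatives, 290 kept their direction and side of the threshold, 42 newly passed, 14 no longer passed and 14 changed sign. Those that changed sign were never called in the reported fit. Sign changes were AREG in siHOXA-AS3 against siNT without the filter (0.01), and in siHOXB-AS3 against siNT TGFA (-0.01 with library totals and with limma-trend) and HBEGF (-0.02 and -0.04). The others came from leaving out a library, which gave ranges of -0.2 to 0.15 for AREG and -0.03 to 0.99 for BTC (siHOXA-AS3 against siNT), -0.02 to 0.09 for TGFA and -0.33 to 0.32 for HBEGF (siHOXB-AS3 against siNT), and -0.23 to 0.62 for ERBB2 and -0.28 to 0.62 for EREG (between the KDs).

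Members called in siHOXA-AS3 against siNT were 0 in the reported fit and 1 after GC removal. In siHOXB-AS3 against siNT they were 0, and 2 with DESeq2, 1 with library totals, 2 without the filter, 5 with only the groups compared and 3 after GC removal. Between the KDs they were 2, and 0 with only the groups compared and 1 with limma-trend. All genes called in siHOXA-AS3 against siNT were 0, and 51 with DESeq2, 24 without the filter, 1 with limma-trend and 509 after GC removal. In siHOXB-AS3 against siNT they were 8, and 347 with DESeq2, 265 without the filter, 2995 with only the groups compared and 1699 after GC removal. Between the KDs they were 204, and 792 with DESeq2, 706 without the filter, 2 with only the groups compared, 93 with limma-trend and 3268 after GC removal.

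With the replicate number as a block, 0 members and 10 genes were called between the KDs and 0 genes in siHOXB-AS3 against siNT, and no other count of calls changed by over 1.5 times. Crossed pairing of the siNT numbers gave 14, 225 and 758 genes called in siHOXA-AS3 against siNT, siHOXB-AS3 against siNT and between the KDs, and 2 members called in siHOXB-AS3 against siNT.

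Leaving out 1 library gave 0 to 4 members and 0 to 4031 genes called in siHOXA-AS3 against siNT, 0 to 5 members and 0 to 3035 genes in siHOXB-AS3 against siNT, and 0 to 5 members and 0 to 5027 genes between the KDs. The high counts came without siHOXA-AS3 replicate 1 (4031, 3021 and 5027 genes) or replicate 2 (2402, 3035 and 4842), which takes the spread between those libraries out of the fit. In siHOXA-AS3 against siNT this gave 4 and 1 members. In both siHOXB-AS3 comparisons it gave 5 members in each case. Without siNT replicate 1, siNT replicate 2, siHOXB-AS3 replicate 1 or siHOXB-AS3 replicate 2, 0 members were called in the 3 comparisons.

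The order of levels had 2 members at another rank in siNT libraries alone (BTC above HBEGF). In FPKM the ratio of summed receptors was 0.823 for siHOXB-AS3 against siNT and 0.812 between the KDs, beside 0.797 and 0.779 in TPM. The cause of these changes was not tested. With 2 libraries per condition, the depth of the EPGN counts did not allow a test.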
